A study of Saccharomyces cerevisiae with 20 samples.

Results

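A pair of deletion strains of budding yeast was compared directly after 3 days of growth, without passing through the wild type. One strain lacked TUP1 (Δtup1) and the other lacked SDS3 (Δsds3), and each was represented by 2 stationary phase libraries, 4 of the 20 libraries of the series. Both strains were W303 derivatives with an intact RAD5, in which the open reading frame had been replaced by a drug-resistance cassette. All cultures were grown in 25 mL of rich glucose medium (YPD) at 30 °C with no treatment, and poly-A RNA was sequenced from 2 biological replicates per group. For orientation, the 2 wild type libraries of the same age are given as values beside the deletions, and the same 2 deletions at diauxic shift, sampled soon after glucose ran out, are used to ask whether a difference was already there. The 2 libraries of a group are called A and B, by the endings of their column names. At stationary phase these names give A and B of each deletion different strain numbers, whereas at diauxic shift the strain number is the same. Library A was the deeper in both deletions, with 14251208 reads on genes in Δtup1 and 18530338 in Δsds3, and library B had 3653591 in Δtup1 and 2633585 in Δsds3.

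Tup1 is the repressing subunit of the Tup1-Ssn6 corepressor. It does not bind DNA on its own, but is brought to promoters by sequence-specific factors such as Mig1, Nrg1, Rox1 and Sut1, and in turn recruits histone deacetylases. Sds3 is a subunit particular to Rpd3L, the large form of the Rpd3 histone deacetylase complex. Rpd3L is brought to promoters by factors such as Ume6, which binds the URS1 element upstream of early meiotic genes, and it is also needed for the proper response of many stress genes. Tup1 and Rpd3L therefore act through partly different DNA-binding factors, and the direct contrast shows which genes distinguished their absence in quiescing cultures. Loss of Tup1 is known to make cells stick together in clumps, and whether the Δsds3 cultures clumped was not compared here.

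Reads on the deleted genes matched the labels. TUP1 (chromosome III, 260311 to 262452 in R64, the sacCer3 reference) had 1 and 0 reads in the Δtup1 libraries, against 1862 and 1675 rescaled reads in Δsds3, where rescaled reads are whole reads divided by a size factor set over the 4 libraries together. From the single read, the level in Δsds3 was 3500 times that in Δtup1, with a 95% counting interval of 628 to 138000. SDS3 (chromosome IX, 202276 to 203259) had 332.6 and 335 rescaled reads in Δtup1 and 1 and 0 reads in Δsds3, a ratio of 1220 with an interval of 218 to 48000. Intervals of this kind cover counting error only. Both strains carried the transcripts of the a mating type. The a-factor gene MFA1 had 447 and 642 rescaled reads in Δtup1 and 741 and 720.3 in Δsds3, while the alpha-factor gene MF(ALPHA)2 had 5.8 and 2.34 in Δtup1 and 5.06 and 4.19 in Δsds3. Other alpha-specific transcripts were not absent. The 3 alpha-specific genes tested summed to 358 and 363 in Δtup1, 1144 and 1087 in Δsds3 and 1453 and 1424 in the wild type. The 7 a-specific genes tested summed to 2000 and 1913 in Δtup1 and 4754 and 4460 in Δsds3.

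The difference between the deletions was broad. Of 6131 genes with enough reads, 3545 were called (limma, p adjusted by Benjamini-Hochberg below 0.05 with a change of 1.5-fold or more), which is 57.8% of the genes tested. Of these, 1774 genes were higher and 1771 lower in Δtup1, or 28.9% of the genes tested in each direction. The difference was at least 4-fold for 665 of them, with 286 higher and 379 lower. The libraries of a strain were close together, since 5.6% of tested genes lay at least 2-fold apart between the Δtup1 libraries and 2.33% between the Δsds3 libraries. In all 3545 called genes the groups did not overlap, whereas 40.9% of all tested genes lay apart with Δtup1 higher and 41.4% with Δtup1 lower. The scaling matters for the balance of the directions. Rescaled reads summed to 9187030 and 8565010 in Δtup1 and to 5856060 and 5514240 in Δsds3, and abundant transcripts took a larger share in Δtup1, with 29% and 27.3% of reads on the top 100 genes, against 21.7% and 19% in Δsds3. When libraries were scaled by total reads in place of the median of ratios, the median log2 fold change of all genes moved to -0.64, and 808 genes were higher and 2986 lower. All changes are therefore given relative to the median gene. As these are bulk cultures, fewer cells expressing a gene and less of its RNA per cell cannot be told apart.

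**Figure D1:**
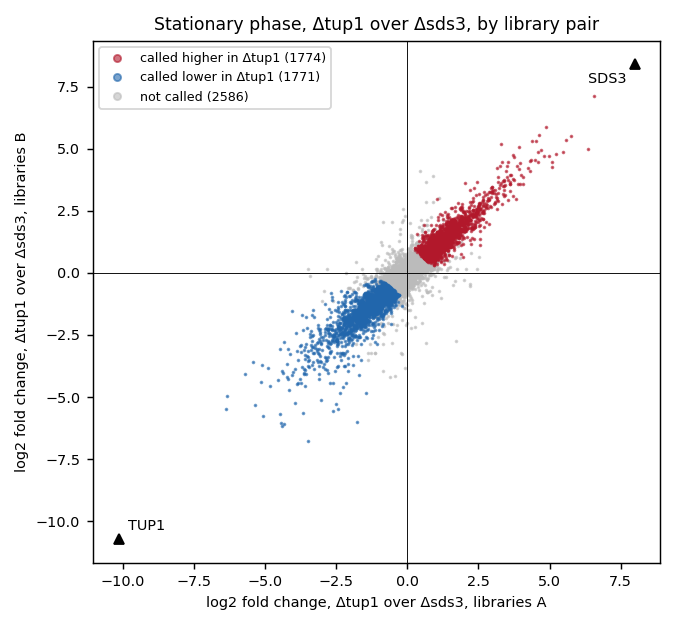
Log2 fold change of Δtup1 over Δsds3 at stationary phase for each tested gene, from the 2 A libraries on the x axis and the 2 B libraries on the y axis. Red points are the 1774 genes called higher in Δtup1, blue points the 1771 called lower, grey points were not called, and triangles mark the deleted genes, which lie in opposite corners.

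The largest rises in Δtup1 were in genes for transport, the cell wall, sporulation and stress. For the 12 largest among called genes with a mean of at least 100 rescaled reads, the log2 fold change ran from 4.77 to 6.84 on the log2(rescaled reads + 1) scale, with adjusted p-values of 1.9e-05 to 1.0e-04 (limma). INA1 had 6730.1 and 6529 rescaled reads in Δtup1 and 70.2 and 46.1 in Δsds3, a log2 fold change of 6.84 ± 0.22 (SE). The uncharacterized gene YFL051C reached 237 and 164 in Δtup1, against 1.9 and 4.19 in Δsds3 from 6 and 2 reads, a ratio of 91.3 (95% counting interval 46.4 to 212). HXT13, a member of the hexose transporter family that carries hexitols, had 21239.9 and 15981 in Δtup1 and 395 and 352 in Δsds3. The groups were at least 10-fold apart in each of these genes, and in each the wild type libraries lay far nearer to Δsds3 than to Δtup1. In HXT13, 45.1% of the 37-base stretches occur more than once in the genome, which leaves part of its reads uncertain.

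TIR1 and DAN1, mannoproteins of the cell wall made when oxygen is scarce, formed the next pair. TIR1 had 2807 and 1822 rescaled reads in Δtup1 and 57.8 and 44 in Δsds3, and DAN1 had 1873 and 1777 in Δtup1 and 80.6 and 44 in Δsds3. RCK1, a protein kinase of the oxidative stress response, had 6856 and 11604 in Δtup1, 234 and 199 in Δsds3 and only 23.9 and 33.8 in the wild type, so that both deletions stood above it. DIT1, which makes a precursor of the dityrosine layer of the spore wall, had 18003 and 15482 in Δtup1 and 404 and 528 in Δsds3. HXT3, a low-affinity glucose transporter, had 8268 and 12744 in Δtup1 and 335 and 272 in Δsds3, and YNR014W, which is uncharacterized, had 6838 and 4278 in Δtup1 and 181 and 153 in Δsds3. For the transcription factor gene SUT1 the levels were 1743 and 1959.8 in Δtup1 and 83.7 and 48.2 in Δsds3, and for the sulfate permease gene SUL2 they were 7472 and 7445 in Δtup1 and 288 and 239 in Δsds3.

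The catalase gene CTT1 differed in where the wild type lay. It had 22752 and 15423 rescaled reads in Δtup1, 670.3 and 706 in Δsds3 and 20632 and 18126 in the wild type. Here the wild type libraries lay within the range of Δtup1 and far above Δsds3.

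The 12 largest falls in Δtup1 included 2 meiotic genes, SAE3 and SPO13. SAE3, which with Mei5 loads the meiotic recombinase Dmc1, had 3 reads in each Δtup1 library, or 1.93 and 7.03 rescaled reads, against 236 and 249 in Δsds3. Its level in Δsds3 was 80 times that in Δtup1, with a 95% counting interval of 36.8 to 218. SPO13, needed for homologues to separate in the first meiotic division, had 9.03 and 25.8 in Δtup1 and 347 and 354 in Δsds3. CIT3, a mitochondrial citrate and methylcitrate synthase, was the most abundant of the group, with 313 and 431 in Δtup1, 11083 and 8976 in Δsds3 and 4581 and 5644 in the wild type, where both deletions stood apart from the wild type on opposite sides. DAL1, the allantoinase, had 16.1 and 4.69 in Δtup1 and 264 and 211 in Δsds3.

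The other large falls were in genes of varied roles. PHO5, the repressible acid phosphatase, had 584 and 284 rescaled reads in Δtup1 and 7095 and 6736 in Δsds3. SRT1, a prenyltransferase of dolichol synthesis, had 23.9 and 68 in Δtup1 and 734 and 978 in Δsds3. The kinetochore gene SPC24 had 25.8 and 23.4 in Δtup1 and 362 and 469 in Δsds3, TOS4, which encodes a forkhead-associated domain protein, had 27.1 and 30.5 in Δtup1 and 530.0 and 574 in Δsds3, and AIM44, a bud neck protein, had 98 and 150.0 in Δtup1 and 1848 and 1920.0 in Δsds3. The neighbouring genes YNR065C and YNR066C, on chromosome XIV, both fell, with log2 fold changes of -4.23 and -4.42. YCR099C, which overlaps EMA35 so that their reads may not be separable, had 99.9 and 93.8 in Δtup1 and 1642 and 1520.1 in Δsds3. The log2 fold change of these 12 genes ran from -5.65 to -3.95, with adjusted p-values of 2.4e-05 to 3.3e-04 (limma). In all of them but CIT3, the wild type was nearer to Δtup1 than to Δsds3. For CIT3 the wild type lay about midway in rescaled reads and nearer to Δsds3 on the log2 scale.

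**Figure D2:**
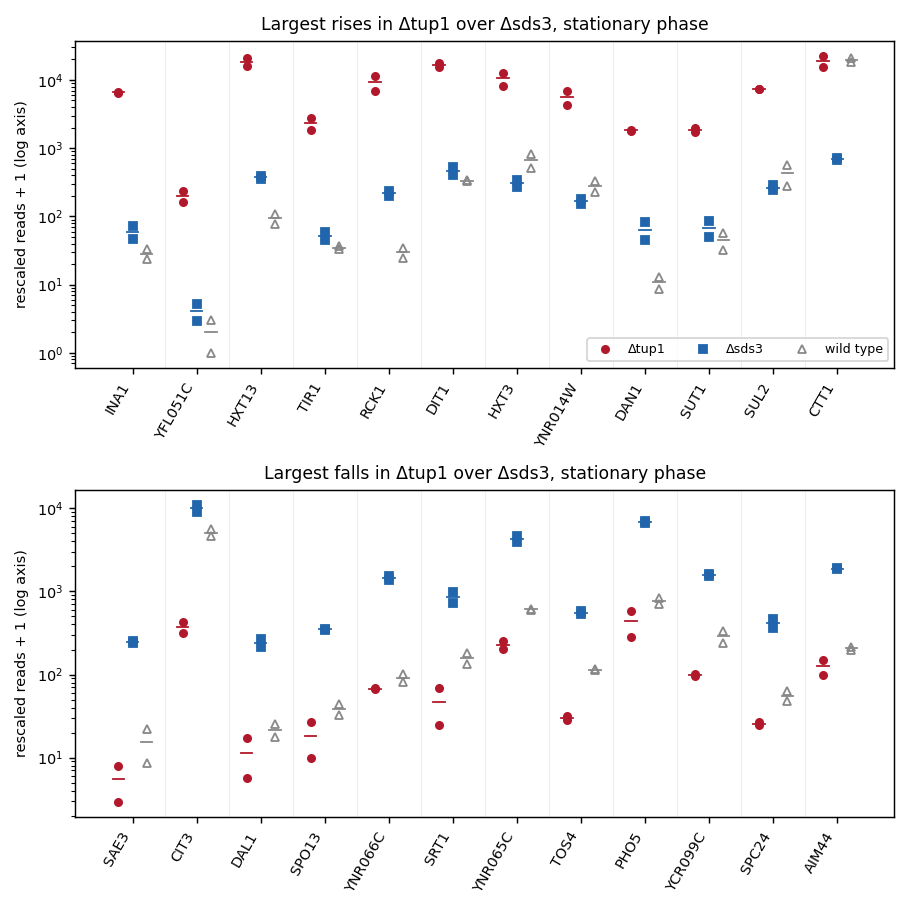
Rescaled reads plus 1 (log axis) in each stationary phase library for the 12 largest rises (top) and the 12 largest falls (bottom) of Δtup1 over Δsds3. Each point is 1 library and each dash the mean of 2. In every gene the red Δtup1 points lie clear of the blue Δsds3 points, as the choice of these genes required. The wild type triangles mostly lie near Δsds3 in the top panel, except in CTT1, and near Δtup1 in the bottom one.

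Most early meiotic genes fell. These genes encode the machinery of homologue pairing and recombination, and in mitotic cells they are held off by Ume6 and Rpd3L acting through URS1. Of 35 members tested, 25 fell in Δtup1 relative to Δsds3 and 2 rose (1 without Δtup1 library B or Δsds3 library A), with a median log2 fold change of -2.08, against -0.0028 over all genes tested. The 8 members that fell most all have a URS1 core, GGCGGC or its complement GCCGCC on the other strand, in the window from 250 bases before to 50 bases after the start codon. This core was found in 21 of the 35 promoters (60%) and in 308 of 6001 promoters of all genes (5.13%). It was in 100 of 1661 promoters of all genes lower in Δtup1 (6.02%) and 86 of 1735 of genes higher (4.96%), and also in 9 of 21 promoters (42.9%) of anaerobic mannoproteins, a list with 12 members higher. The list of early meiotic genes holds many genes known for that element, so the share describes the list and is not a test. The stretches around the core are shown for these 8 members because they hold the element through which Rpd3L is known to act, in the direction of the gene and from the RefSeq R64 reference of strain S288C, with the core in capitals and 10 bases of context on either side. The windows lie at chrVIII:262647-262672 (SAE3, reverse strand), chrVII:435486-435511 (HOP2, forward strand), chrXVI:321741-321766 (MEI5, reverse strand), chrVIII:131942-131967 (SPO13, forward strand), chrVIII:402755-402780 (SPO16, reverse strand), chrXIV:250811-250836 (MER1, forward strand), chrV:548273-548298 (DMC1, forward strand) and chrV:239855-239880 (MEI4, reverse strand), and their cores begin at positions -138 (DMC1) to -88 (SPO16) from the start codon.
SAE3: tctgcctaatGGCGGCtattctattt
HOP2: ttatgtcctcGGCGGCtaaattttcc
MEI5: aaaagtattaGCCGCCcaaacttcta
SPO13: ttgagaaataGCCGCCgacaaaaagg
SPO16: gtgaaaagtgGGCGGCtaaaaccgag
MER1: tcgcattttaGCCGCCgacagtgtta
DMC1: ccggaaaataGCCGCCcaaggataaa
MEI4: tatattgctgGGCGGCtaaatgtttc

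In all 8 windows the core extends to GGCGGCTA on one strand or the other. The extended letters were in 19 of the 35 promoters (54.3%), against 70 of all 6001 (1.17%), and in 36 of 1661 promoters of genes lower in Δtup1 (2.17%) and 13 of 1735 of genes higher (0.749%). The whole SPO13 promoter is shown to place its single core. It lies on the forward strand at chrVIII:131797-132096 of R64 (sacCer3), and the start codon follows the first 250 bases.
SPO13 promoter: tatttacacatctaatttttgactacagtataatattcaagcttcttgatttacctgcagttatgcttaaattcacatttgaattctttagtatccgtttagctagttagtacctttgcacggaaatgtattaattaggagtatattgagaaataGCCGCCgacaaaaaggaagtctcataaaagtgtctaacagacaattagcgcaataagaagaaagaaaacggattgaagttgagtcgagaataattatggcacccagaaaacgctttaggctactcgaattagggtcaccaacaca

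Members with the core had a median log2 fold change of -2.59, with 16 of 21 lower, and those without it had -1.35, with 9 of 14 lower. Each group also held 1 member called higher, CST9 (0.89) with the core and IME1 (0.75) without it. HOP2, which pairs homologues, had 2.58 and 4.69 rescaled reads in Δtup1 and 144 and 228 in Δsds3, a ratio of 61.4 from 6 reads in all (95% counting interval 28.2 to 167), and its partner gene MND1 had 72.2 and 148 in Δtup1 and 637 and 683 in Δsds3. MEI5 had 1.93 and 9.38 in Δtup1 and 124 and 126 in Δsds3, a ratio of 35.2 (17.1 to 87.6). All of these Δtup1 libraries lay far under those of Δsds3, without overlap. The recombinase gene DMC1 itself had 61.9 and 42.2 in Δtup1, 441 and 494 in Δsds3 and 213 and 184 in the wild type, so the wild type lay between the deletions. SPO11, which makes the double-strand breaks of meiosis, had 31.6 and 44.5 in Δtup1 and 311 and 341 in Δsds3. HOP1, an axis protein of meiotic chromosomes, had 145 and 148 in Δtup1 and 1373 and 1202 in Δsds3. The log2 fold changes of HOP2, MEI5, DMC1, SPO11 and HOP1 ran from -5.34 to -3.09, with adjusted p-values of 3.9e-05 to 6.8e-04 (limma). Among the lower members the wild type lay between the deletions in 17 of 25, and over the list the median level relative to the wild type was -0.53 in Δtup1 and 1.23 in Δsds3 on the log2 scale.

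The regulators of entry into meiosis did not move together. IME2, a kinase that drives early meiosis, fell in Δtup1, with 248 and 326 rescaled reads against 1499 and 1920.0 in Δsds3. IME1, the master activator, moved the other way, with 4431 and 5474 in Δtup1 and 2273 and 3786 in Δsds3 (log2 fold change 0.75 ± 0.27, adjusted p = 0.044, limma). The IME1 call was lost without Δtup1 library B (0.60) or Δsds3 library A (0.38). UME6, the gene for Ume6, was not called, with 855 and 1149 in Δtup1 and 858 and 875 in Δsds3. Middle and late sporulation genes were mixed, with 7 of 34 higher and 17 lower and a median of -0.85, the lower count being 11 without Δsds3 library B. The spore wall genes DIT1 and DIT2 and the spore protein gene SPS100 rose, the last with 16762 and 16773 in Δtup1 and 1276 and 1968 in Δsds3, while SPR3, a septin of sporulation, had 60 and 46.9 in Δtup1 and 156 and 176 in Δsds3 and fell.

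**Figure D3:**
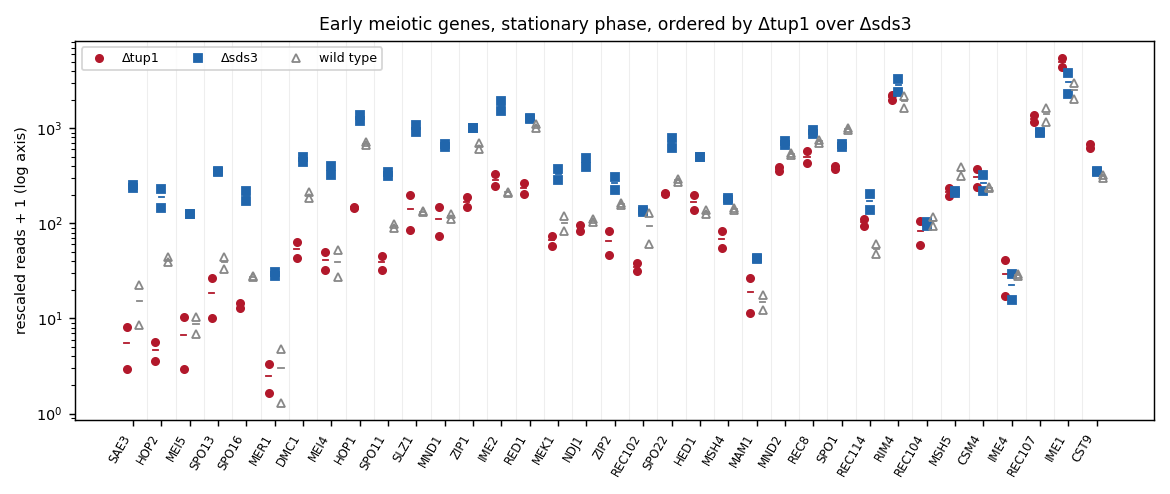
Rescaled reads plus 1 (log axis) of the 35 early meiotic genes in each stationary phase library, ordered by the log2 fold change of Δtup1 over Δsds3. From SAE3 on the left through most of the plot, the red Δtup1 points lie below the blue Δsds3 points, and IME1 and CST9 at the right show the reverse.

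Stress proteins, a list of chaperones, hydrophilins and other stress-induced genes, differed in the opposite direction. Hydrophilins are small, very hydrophilic proteins made in drying or starving cells. Of 23 members, 18 rose in Δtup1 relative to Δsds3 and none fell, with a median log2 fold change of 2.10, and with scaling by total reads 14 were higher and none lower. Together they held 611243 and 595174 rescaled reads in Δtup1, 102426 and 111021 in Δsds3, and 723699 and 754360 in the wild type. SIP18 had 35009 and 49635 in Δtup1 and 1267 and 1920.0 in Δsds3, and GRE1 had 67289.8 and 66807 in Δtup1 and 3384 and 3874 in Δsds3. The wild type was higher still in both of these hydrophilin genes, at 80180.4 and 123263 for SIP18 and 215941 and 230959 for GRE1. HSP26, a small heat shock protein, had 72919 and 80259 in Δtup1, 9496 and 12647 in Δsds3 and 86052 and 76127 in the wild type, and HSP12, a membrane-stabilizing protein, had 51854 and 49703 in Δtup1, 7327 and 8208 in Δsds3 and 50616 and 52977 in the wild type. The log2 fold changes were 4.74 ± 0.29 for SIP18, 4.21 ± 0.25 for GRE1, 2.80 ± 0.33 for HSP26 and 2.71 ± 0.27 for HSP12 (SE), with adjusted p-values of 4.3e-05 to 3.9e-04 (limma). Its largest rises included members that are neither chaperones nor hydrophilins, namely CTT1 (4.77), PAI3 (3.97, an inhibitor of a vacuolar protease), SPI1 (3.82, a cell wall protein), SNZ1 (3.74, of vitamin B6 synthesis) and NQM1 (2.96, a transaldolase). Among chaperones, SSA1 (0.85) and HSP82 (0.83) rose less than the list's median, and SSA2 (0.31) and SSA4 (0.51) were not called. In HSP26 and HSP12 the wild type libraries reached the level of Δtup1. For the chaperone HSP78 the values were 3383 and 3969 in Δtup1 and 2799 and 2900.0 in Δsds3, which did not pass the test. Relative to the wild type, the list's median was -0.03 in Δtup1 and -1.63 in Δsds3 on the log2 scale.

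The letters CCCCT, shared by the stress response element of Msn2 and Msn4 and by the site of Nrg1, were in 13 of the 23 promoters of this list (56.5%) and in 1297 of all 6001 (21.6%), searched on both strands. They were in 504 of 1735 promoters of genes higher in Δtup1 (29%) and in 275 of 1661 of genes lower (16.6%). DDR2, a stress protein gene whose promoter held 3 copies, is shown as an example, with the matches in capitals, on the reverse strand of chrXV:231706-232005 in R64.
DDR2 promoter: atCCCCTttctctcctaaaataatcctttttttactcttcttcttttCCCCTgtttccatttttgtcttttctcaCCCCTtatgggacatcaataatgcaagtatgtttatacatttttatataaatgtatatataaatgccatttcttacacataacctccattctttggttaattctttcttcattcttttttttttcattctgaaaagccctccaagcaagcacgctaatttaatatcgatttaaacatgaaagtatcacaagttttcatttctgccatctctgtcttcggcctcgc
DDR2 had 23971 and 19983 rescaled reads in Δtup1 and 11130.2 and 8775 in Δsds3, a log2 fold change of 1.15 ± 0.27. CTT1, with 1 copy, and GRE1 and SIP18, with none in this window, differed more.

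Genes for storage carbohydrates and respiration rose as well. Of 17 trehalose and glycogen genes, 12 rose in Δtup1 relative to Δsds3 and none fell, with a median of 1.15, and with scaling by total reads 8 were higher and 2 lower. UGP1, which makes UDP-glucose, had 8629 and 7373 rescaled reads in Δtup1 and 1728 and 1556 in Δsds3, and the trehalose synthase gene TPS1 had 15097 and 12772 in Δtup1 and 4187 and 4066 in Δsds3. The glycogen phosphorylase gene GPH1 had 12404 and 7806 in Δtup1 and 10080.3 and 10270.3 in Δsds3 and was not called. Of 37 nuclear genes of oxidative phosphorylation, 33 rose and none fell, with a median of 1.18; with scaling by total reads 16 were higher and 2 lower, and without Δtup1 library A 1 was lower. CYC1, the aerobic cytochrome c, had 6617 and 4173 in Δtup1 and 1482 and 907 in Δsds3, and the Rieske protein gene RIP1 had 8878 and 8310.5 in Δtup1 and 2129 and 1922 in Δsds3. Summed over the 37 genes, Δtup1 had 285512 and 242168 rescaled reads, Δsds3 had 120451 and 99723, and the wild type, with 226967 and 221638, lay between them. The single genes varied. Among the 33 that rose, the wild type lay above both deletions in 12 and between them in 14, with an overlap in 7.

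The ribosomes of mitochondria and cytosol went in opposite directions. Of 67 genes for mitochondrial ribosomal proteins, 54 rose in Δtup1 relative to Δsds3 and 1 fell, with a median of 0.96, whereas scaling by total reads gave 15 higher and 5 lower. Without Δtup1 library A 3 were lower, and without any other single library none. MRPS17 had 2202 and 3650.0 rescaled reads in Δtup1 and 606 and 618 in Δsds3. Of 138 genes for cytosolic ribosomal proteins, 118 fell and 1 rose, with a median of -1.03. Their summed level was 114279 and 93006.8 in Δtup1, 218342 and 189461 in Δsds3, and 146366 and 122675 in the wild type. RPS22A had 329 and 204 in Δtup1 and 1151 and 911 in Δsds3, and RPS29A had 157 and 134 in Δtup1 and 596 and 630.2 in Δsds3. The exception, RPS27A, had 1505 and 2612 in Δtup1 and 1144 and 1229 in Δsds3, a call that was lost without Δtup1 library B (0.34), Δsds3 library A (0.69) or Δsds3 library B (0.79). Many of these genes exist as near-identical pairs, and 97 of the 138 hold a 37-base stretch that occurs more than once in the genome. Reads may thus be divided unevenly within a pair, while the sum over the list is less affected. When single libraries were left out, 82 to 122 of the genes were called lower.

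Factors that build ribosomes were lower too. Of 93 ribosome biogenesis factors, 50 fell and 4 rose, with a median of -0.63; 7 rose without Δtup1 library A and 2 without Δsds3 library B. Of 21 subunits of RNA polymerases I and III, 11 fell and none rose, with a median of -0.77, but 3 rose without Δtup1 library A, and scaling by total reads gave 17 lower. YTM1, needed for the large subunit, had 253 and 220.4 rescaled reads in Δtup1, 736 and 735 in Δsds3 and 119.7 and 93.9 in the wild type, and RPA43 of RNA polymerase I had 77.4 and 79.7 in Δtup1, 261 and 232 in Δsds3 and 74.6 and 47 in the wild type. Relative to the wild type the biogenesis list had a median of 0.85 in Δtup1 and 1.42 in Δsds3, and among its 50 lower members the wild type lay below both deletions in 30. The PAC letters GATGAG, a motif of this regulon, were in 87 of the 93 promoters (93.5%), against 1222 of 6001 (20.4%), and in 388 of 1661 promoters of all genes lower in Δtup1 (23.4%) and 253 of 1735 of genes higher (14.6%).

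Several glucose transporter genes are known targets of Tup1, recruited by Mig1 or Rgt1. Of 21 transporters and sensors, 16 rose in Δtup1 relative to Δsds3 and 4 fell, with a median of 2.09, and scaling by total reads also gave 16 and 4. The letters CCCCGC of Mig1 were in 0 of 20 promoters of the list, against 154 of 6001 (2.57%), and CGGANNA of Rgt1 in 4 of 20 (20%), against 1586 of 6001 (26.4%), in windows of 250 bases before to 50 bases after the start codon. HXT1, of low affinity, had 411 and 516 rescaled reads in Δtup1 and 131 and 117 in Δsds3, and HXT4 had 4052 and 5504 in Δtup1 and 263 and 163 in Δsds3. HXT2, of high affinity, had 13214 and 15135 in Δtup1, 1568 and 1499 in Δsds3 and 211 and 265 in the wild type, so that both deletions exceeded the wild type. HXT5, the transporter of slowly growing cells, had 14786 and 12499.7 in Δtup1, 2529.8 and 2822 in Δsds3 and 38901 and 32035 in the wild type, and was thus below the wild type in both. The corepressor of transporter genes MTH1 had 6981 and 11513 in Δtup1 and 687 and 526 in Δsds3. The glucose sensor SNF3 had 2887 and 2698 in Δtup1 and 749 and 808 in Δsds3. The log2 fold changes of these 6 genes ran from 1.84 to 4.50, with adjusted p-values of 3.9e-05 to 2.9e-04 (limma).

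The 4 falls were all in minor HXT genes with few reads. HXT9 had 26.4 and 23.4 rescaled reads in Δtup1 and 116 and 128 in Δsds3, and HXT11 had 25.8 and 28.1 in Δtup1 and 86 and 94.2 in Δsds3. HXT12 had 15.5 and 18.8 in Δtup1 and 107 and 83.8 in Δsds3, and HXT14 had 16.8 and 23.4 in Δtup1 and 57.5 and 56.5 in Δsds3. The HXT14 call was lost without either Δsds3 library (-1.47 and -1.49). HXT8, also minor, rose to 153 and 199 in Δtup1, against 64.2 and 44 in Δsds3. Of the 37-base stretches, 68.3% in HXT9, 74.5% in HXT11 and 95.8% in HXT15 occur more than once in the genome, which makes the assignment of their reads uncertain. HXT15 had 883 and 961 in Δtup1 and 42.7 and 39.8 in Δsds3.

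Several genes for other sugars also rose in Δtup1. Among the 4 hexitol dehydrogenase genes 3 rose. The mannitol dehydrogenase gene DSF1, beside HXT13, had 27282 and 18819.9 rescaled reads in Δtup1 and 2220.4 and 1928 in Δsds3, and 66.2% of its stretches occur more than once in the genome. Of 11 sucrose, maltose and isomaltose genes, 7 rose and none fell, with a median of 1.68 (1.57 to 1.78 when single libraries were left out). With scaling by total reads 6 of them were higher and 2 lower. The invertase gene SUC2, repressed by Mig1 and Tup1 when glucose is present, had 18867 and 11843 in Δtup1, 2995 and 2605 in Δsds3 and 1574 and 1193 in the wild type, and the isomaltase gene IMA1 had 5117 and 4881 in Δtup1, 477 and 557 in Δsds3 and 208 and 184 in the wild type. Of 7 galactose genes, 3 were higher and 2 lower, against 28.9% of all genes in each direction. Their median was 0.70 (0.41 to 0.82 when single libraries were left out). With scaling by total reads 1 galactose gene was higher and 2 lower, against 808 and 2986 of all 6131 genes.

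**Figure D4:**
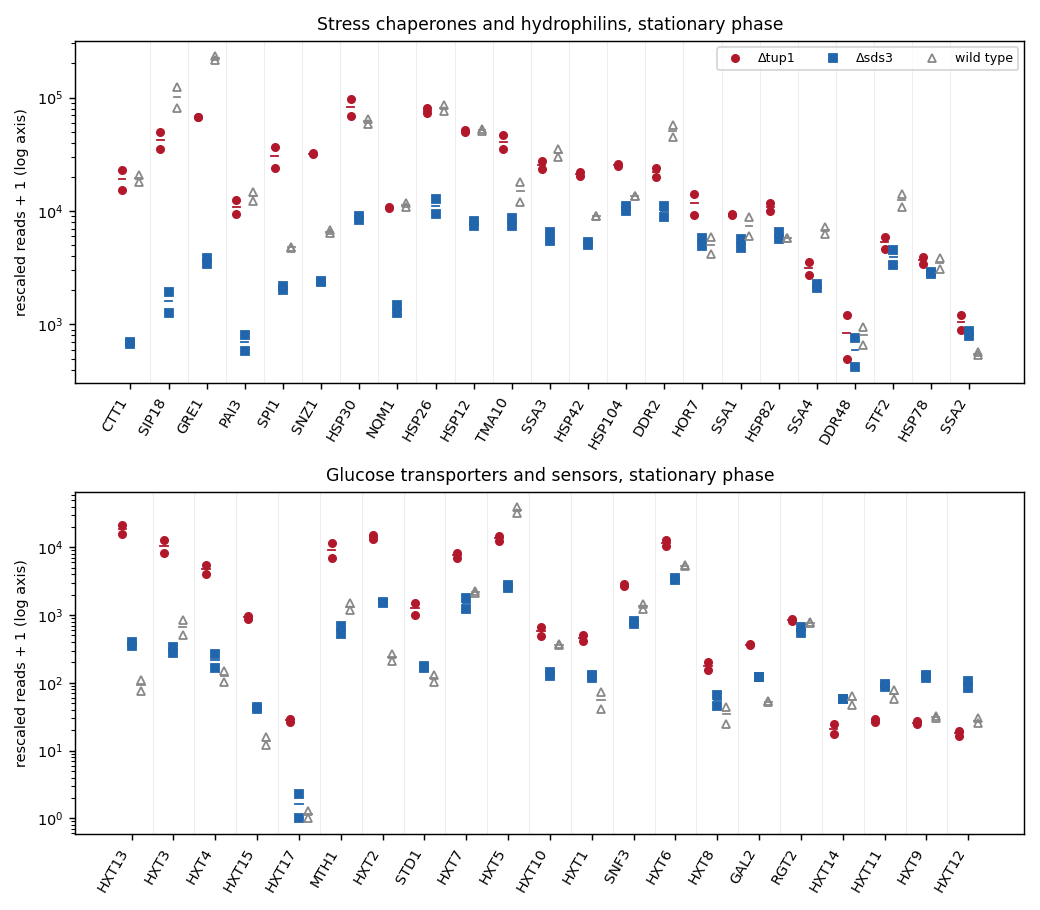
Rescaled reads plus 1 (log axis) in each stationary phase library for the 23 genes of the stress list (top) and 21 glucose transporter and sensor genes (bottom), each ordered by the log2 fold change of Δtup1 over Δsds3. The wild type triangles often reach the red Δtup1 points in the top panel, whereas in the bottom panel they mostly lie near or under the blue Δsds3 points.

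The genes of the DNA-binding factors that bring Tup1 to promoters were themselves higher in Δtup1. Of 18 such genes 16 rose and none fell, with a median of 1.79. NRG1 had 5486 and 6629.6 rescaled reads in Δtup1 and 967 and 938 in Δsds3, and MIG1 had 3528 and 4663 in Δtup1 and 1471 and 1346 in Δsds3. ROX1, the repressor of hypoxic genes, had 6916 and 8632 in Δtup1 and 626 and 507 in Δsds3. CIN5 had 2837 and 4400.2 in Δtup1 and 197 and 224 in Δsds3, and HAP1, the haem-responsive factor, had 4579.6 and 4016 in Δtup1 and 1158 and 972 in Δsds3. Δtup1 lay above Δsds3 without overlap in each, with log2 fold changes of 1.53 for MIG1 to 4.07 for CIN5 and adjusted p-values of 3.3e-05 to 5.1e-04 (limma). Over the list the median relative to the wild type was 2.18 in Δtup1 on the log2 scale, and in Δsds3 it was within 0.01 of 0.

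Hypoxic genes and their cell wall counterparts rose alongside ROX1, which is itself on the hypoxic list. Of 14 hypoxic genes, 12 rose and 1 fell, with a median of 1.79, and with scaling by total reads 9 were higher and 1 lower. OLE1, the fatty acid desaturase, had 70338 and 61155 rescaled reads in Δtup1 and 2898 and 2075 in Δsds3, and CYC7, the hypoxic cytochrome c, had 13082 and 17748 in Δtup1 and 832 and 817 in Δsds3. The single fall was in AAC3, a hypoxic ADP/ATP carrier, with 34.2 and 42.2 in Δtup1, 72.7 and 67 in Δsds3 and 2.36 and 0 in the wild type, a call lost without Δtup1 library A (-0.71) or either Δsds3 library (-0.80 and -0.92). The Rox1 letters ATTGTT were in 9 of the 14 promoters (64.3%), against 2111 of 6001 (35.2%). They were in 592 of 1735 promoters of genes higher in Δtup1 (34.1%), in 634 of 1661 of genes lower (38.2%) and in 7 of 21 of the anaerobic mannoproteins (33.3%). Of 21 anaerobic mannoproteins, 12 rose and 2 fell, with a median of 1.10 (0.77 to 1.34 when single libraries were left out). With scaling by total reads 8 were higher and 3 lower. Since 19 of these 21 hold stretches that occur more than once in the genome, the single PAU genes are uncertain.

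Flocculins, the adhesins behind clumping, rose in 4 of 5 cases. FLO11 had 9977 and 4379 rescaled reads in Δtup1, 293 and 228 in Δsds3 and 2370.2 and 1561 in the wild type, and FLO1 had 2848 and 1238 in Δtup1 and 480.0 and 379 in Δsds3. The flocculin genes share repeats with one another, over 60.4% of the stretches of FLO1, which limits the division of reads among them. Upstream of FLO11 lie a pair of opposed non-coding RNAs, known to act on it in opposite senses and named here after their values were seen. PWR1, which favours FLO11, had 282 and 300.1 in Δtup1 and 7.9 and 10.5 in Δsds3, and ICR1, which interferes with it, had 103 and 86.7 in Δtup1 and 453 and 473 in Δsds3. In the same way IRT1, a non-coding RNA upstream of IME1 that holds it down, had 824 and 605 in Δtup1 and 2032 and 2052 in Δsds3, opposite in direction to IME1. The use of strand in counting is not stated, so reads of overlapping RNAs from the 2 strands cannot be told apart.

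Many growth and division genes were lower in Δtup1 than in Δsds3. Relative to the wild type on the log2 scale, G1 cyclins and Start regulators had medians of -0.23 in Δtup1 and 1.20 in Δsds3. B-type cyclins and mitotic regulators had -0.52 and 0.81, and replication licensing genes 0.09 and 0.69, in the same order. Of 15 G1 cyclins and Start regulators, 11 fell and 3 rose, with a median of -1.90. The cyclin gene CLN1 had 76.1 and 70.3 rescaled reads in Δtup1 and 356 and 415 in Δsds3, and CLN2 had 108 and 63.3 in Δtup1 and 467 and 362 in Δsds3. WHI5, which restrains Start, rose, with 359.7 and 410.2 in Δtup1 and 195 and 182 in Δsds3. Of 23 B-type cyclins and mitotic regulators, 17 fell and 1 rose, with a median of -1.78. CLB2 had 18.7 and 16.4 in Δtup1 and 199 and 228 in Δsds3, and the transcription factor gene SWI5 had 69 and 101 in Δtup1 and 859.9 and 886 in Δsds3. The 1 that rose was CDH1, an activator of cyclin destruction, with 2084 and 1814 in Δtup1 and 366 and 309.9 in Δsds3. Of 21 replication licensing genes, 11 fell and 4 rose, but 1 rose without either Δsds3 library and, with scaling by total reads, none rose and 15 fell, CDC45 having 40.6 and 46.9 in Δtup1 and 478 and 484 in Δsds3. Histone genes had 3 of 11 higher and none lower, against 28.9% of all genes in each direction. With scaling by total reads 2 histone genes were higher and 5 lower, against 808 and 2986 of all 6131 genes.

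Polarity and mating genes fell too. Of 19 polarity and bud site genes, 13 fell and 1 rose, with a median of -0.91. PEA2 of the polarisome had 78 and 82 rescaled reads in Δtup1 and 268 and 178 in Δsds3, and its partner SPA2 had 521 and 666 in Δtup1 and 945 and 1064 in Δsds3. The 1 that rose was CDC42, the GTPase that sets polarity, with 1238 and 1048 in Δtup1 and 529 and 494 in Δsds3. The SPA2 call was lost without Δsds3 library B (-0.68). AFR1, which shapes the mating projection, had 2420.0 and 1840.3 in Δtup1 and 1732 and 1520.1 in Δsds3 and was not called (adjusted p = 0.12, limma). Of 17 haploid-specific and pheromone pathway genes, 10 fell and 3 rose, with 6 lower without either Δsds3 library and 1 higher without Δsds3 library B. Of 7 a-specific mating genes, 5 fell and none rose. BAR1, the protease that degrades alpha-factor, had 66.4 and 61 in Δtup1 and 359 and 354 in Δsds3, and STE6, the a-factor exporter, had 133 and 103 in Δtup1 and 547 and 637 in Δsds3. SST2, which damps pheromone signalling, had 83.8 and 91.4 in Δtup1, 359.6 and 348 in Δsds3 and 475 and 505 in the wild type.

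More zinc, permease, water channel and sterol genes were higher than lower, and fewer of them with scaling by total reads. That scaling gave 7 of 13 zinc genes higher and 2 lower, 11 of 25 permeases higher and 5 lower, 2 of 4 water channels higher and none lower, and 9 of 23 ergosterol genes higher and 4 lower. Of 13 zinc genes, 9 rose and 1 fell, with a median of 1.31. ZRT1, the high-affinity zinc transporter, had 25094 and 32635 rescaled reads in Δtup1 and 6687 and 5235 in Δsds3, while YKE4, a zinc transporter of the endoplasmic reticulum, was the one that fell, with 1298 and 971 in Δtup1 and 5354 and 3947 in Δsds3. Of 25 amino acid and peptide permeases, 15 rose and 1 fell (none fell without Δtup1 library B or Δsds3 library A), and the peptide transporter gene PTR2 had 14217 and 10831 in Δtup1 and 856 and 743 in Δsds3. All 4 aquaglyceroporin and aquaporin genes rose, AQY1 with 2563 and 1796 in Δtup1, 251 and 159 in Δsds3 and 6868 and 4622 in the wild type. Of 23 ergosterol genes, 14 rose and 2 fell (1 fell without Δtup1 library B or either Δsds3 library), ERG5 having 2589 and 1826 in Δtup1 and 192 and 136 in Δsds3.

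Phosphate and propionate genes showed the reverse. Of 19 phosphate genes, 9 fell and 2 rose, with a median of -0.51. PHO84, the high-affinity phosphate transporter, had 3519 and 1526 rescaled reads in Δtup1, 13619 and 9569 in Δsds3 and 9806 and 8617 in the wild type. All 3 genes of the methylcitrate cycle, which breaks down propionate, fell. Besides CIT3, PDH1 had 965 and 1526 in Δtup1 and 11252 and 7071 in Δsds3, and ICL2 had 832 and 844 in Δtup1 and 3309 and 2668 in Δsds3. Gluconeogenesis and glyoxylate genes were mixed, with 7 of 20 higher and 5 lower, and 5 higher and 9 lower with scaling by total reads. Their median was 0.22, and -0.09 to 0.31 when single libraries were left out. Over all genes 28.9% were called in each direction, and with scaling by total reads 808 of 6131 were higher and 2986 lower. PCK1 of gluconeogenesis rose to 30217 and 18925 in Δtup1, against 5789.9 and 5224 in Δsds3, and ADH2, the ethanol-oxidizing alcohol dehydrogenase, fell to 1767 and 719.7 in Δtup1, against 8547 and 6702 in Δsds3. Among arginine and allantoin genes 4 of 11 rose and 6 fell. Iron uptake genes had 12 of 24 higher and 4 lower, which turned to 5 higher and 9 lower with scaling by total reads, beside the same 808 and 2986 of all 6131 genes. Of the iron genes 2 were lower without Δtup1 library B or Δsds3 library A, and 1 without Δsds3 library B.

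**Figure D5:**
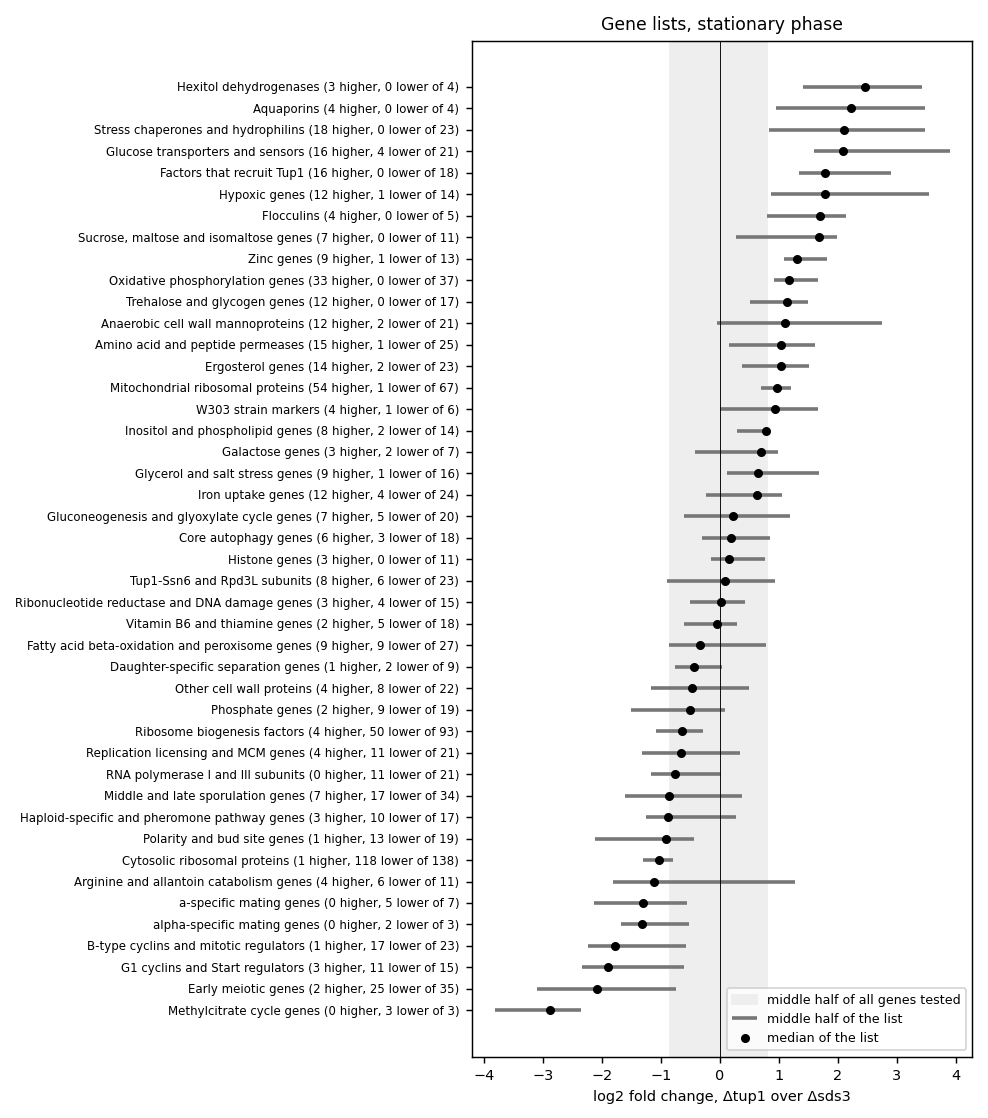
Median (dot) and interquartile range (bar) of the log2 fold change of Δtup1 over Δsds3 in each of 44 gene lists at stationary phase, with the numbers of members called in each direction. The shaded band is the interquartile range of all 6131 genes tested. Methylcitrate and early meiotic genes lie farthest to the left, and hexitol, aquaporin, stress and glucose transporter genes farthest to the right.

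Of the 23 genes of corepressor subunits and partners, which include both deleted genes, 8 were higher and 6 lower, against 28.9% of all genes in each direction. With scaling by total reads 3 were higher and 11 lower, close to the shares over all genes, where 808 of 6131 were higher and 2986 lower. Besides the deleted genes, RPD3 had 721 and 785 rescaled reads in Δtup1 and 347 and 392 in Δsds3, UME1, a subunit of the same complex, had 844 and 963 in Δtup1 and 309 and 335 in Δsds3, and CYC8, which encodes Ssn6, had 2122 and 1761 in Δtup1 and 1083 and 919 in Δsds3. SAP30, an Rpd3L subunit, was lower, with 143 and 119.6 in Δtup1 and 513 and 479 in Δsds3. ASH1, a repressor that associates with Rpd3L, had 655 and 281 in Δtup1, 5636 and 4734 in Δsds3 and 869 and 656 in the wild type.

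The wild type libraries were placed beside the deletions as a description without a test, on the median of ratios scale only. Placement with scaling by total reads was not computed. A wild type that overlaps a deletion or lies between the deletions does not assign the difference to 1 strain. Of the 1774 genes higher in Δtup1, both wild type libraries lay below both deletions in 311, between them in 677 and above them in 241, and they overlapped with at least 1 deletion in 545. Of the 1771 genes lower in Δtup1, the wild type lay below both deletions in 250, between them in 665 and above both in 225, with an overlap in 631. The lists differed in this respect. Of 16 glucose transporter genes higher in Δtup1 the wild type was below both deletions in 8, whereas of the 18 stress genes it was above both in 5 and below both in none.

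The contrast was compared with the same contrast at diauxic shift, where 532 of 6347 genes were called (8.38%), 305 higher (4.81%) and 227 lower (3.58%) in Δtup1. In that comparison the Δsds3 libraries lay at least 2-fold apart in 37.3% of genes, against 5.28% for Δtup1. Leaving out either Δsds3 library gave 2772 and 2768 calls, and leaving out either Δtup1 library gave 47 and 43. Of the 3542 stationary phase calls that were also tested at diauxic shift, 3090 had the same sign there (87.2%), against 76.3% of all genes tested in both. In 473 genes the call was made in both phases in the same direction, and in 0 in opposite directions. FLO11 had 62633 and 64876 rescaled reads in Δtup1 and 615 and 1604 in Δsds3 at diauxic shift, and HXT13 had 68422 and 62718 in Δtup1 and 789 and 1333 in Δsds3. SPO13 had 41.4 and 39.7 in Δtup1 and 1137 and 456 in Δsds3. Each of these 3 genes was called in both phases in the same direction.

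The list medians were set side by side for the phases. Cytosolic ribosomal proteins had a median of -0.05 at diauxic shift, with none called, against -1.03 at stationary phase, and 63 of them lay above 0 at diauxic shift. Mitochondrial ribosomal proteins had all 67 members above 0 at diauxic shift, with 12 called. Early meiotic genes had a median of -1.92 with 14 called lower, and stress genes had 1.11 with 4 called higher. The change between phases was tested for each gene with limma's interaction term. With 8 libraries, 0 of 6433 genes were called (0%), although 885 had an unadjusted p-value under 0.05. Without Δsds3 diauxic library A there were 1682 calls and without library B 160, so a difference between the phases was not shown with these libraries.

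Of 238 tested genes within 25 kb of a chromosome end, 124 were called (52.1%, Wilson 95% interval 45.8 to 58.4), against 57.8% of all genes, with 68 higher and 56 lower and a median of 0.06. Within 10 kb, 23 of 60 genes were called (38.3%, 27.1 to 51), 16 higher and 7 lower. Of the 238 genes, 103 hold a 37-base stretch that occurs more than once in the genome, and neighbouring genes are not independent. Of 6 marker genes of the W303 background, 4 were higher and 1, TRP1 (-0.61), lower, a call lost without Δtup1 library A or either Δsds3 library. URA3 had 3119 and 3146 rescaled reads in Δtup1 and 491 and 410.4 in Δsds3, and ADE2 had 2247 and 2701 in Δtup1 and 649 and 683 in Δsds3, in both cases with the wild type nearer to Δsds3.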

How the data were processed

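Poly-A RNA of W303 cultures was sequenced as paired short reads. The authors aligned them with Bowtie2 to sacCer3 and divided counts per gene by DESeq2 size factors, and these values are the deposited signal; the counting program and its use of strand are not given in the sources used here. Columns of the authors' own fold changes and p-values were not used. Each signal column was returned to whole reads (all within 0.1 of a whole number), and the tables of both deletions were joined on 6792 genes and scaled by the median of ratios. Column names show the group but not which of its samples, so libraries are called A and B by the endings of these names. Genes passing a low count filter (minimum 10) were tested with limma 3.58.1 (R 4.3.3) on log2(rescaled reads + 1) with a trend, and a call needed an adjusted p below 0.05 and 1.5-fold. The fold change on this scale understates the change of low genes. Diauxic libraries were fitted likewise, and the phases were compared with an interaction term. edgeR 4.0.16, DESeq2 1.42.0, TMM, total-read scaling, other pseudocounts (0.5 and 5), filters and thresholds, a replicate block and leaving out libraries were alternatives.

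Named genes were the deleted genes and the 12 largest rises and falls. The rises and falls were taken among called protein-coding genes with a mean of at least 100 rescaled reads and no overlap between the groups. Also named were the called members of each list with the largest change and genes the study names. Some list members and non-coding RNAs were added after their values were seen. The members and lists were chosen with earlier results of these data known. Promoters of 300 bases and gene coordinates came from RefSeq (R64), where 6001 promoters were searched on both strands. The share of a gene's 37-base stretches that occur more than once in the genome, within the gene or outside it, was computed, since the reads had this length. The script was tested on simulated data.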

Additional observations from a re-analysis of the deposited data

Results flagged for a closer look

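In 9 of the genes that the rule names or the text gives, the contrast of Δtup1 and Δsds3 took opposite sides in the 2 phases, with no overlap between the deletions in either. SIT1, a siderophore transporter, had 596 and 469 rescaled reads in Δtup1 and 760.0 and 905 in Δsds3 at stationary phase, but 2510.4 and 1939.6 in Δtup1 and 943 and 417 in Δsds3 at diauxic shift, an interaction of -2.46 on the log2 scale. MRPL11, a mitochondrial ribosomal protein, had 255 and 181 in Δtup1 and 338 and 329 in Δsds3 at stationary phase, but 844 and 852 in Δtup1 and 554 and 265 in Δsds3 at diauxic shift, an interaction of -1.77. FRE3 and MFA1 were likewise lower in Δtup1 at stationary phase and higher at diauxic shift, with interactions of -1.01 and -0.89. MCM4, FPS1, TAH11, AFR1 and SSA4 were higher in Δtup1 at stationary phase and lower at diauxic shift, with interactions of 1.30 for MCM4, 1.15 for FPS1, 1.07 for TAH11, 0.72 for AFR1 and 1.74 for SSA4. None of the 9 interactions passed the test (limma, adjusted p of 0.28 to 0.45). At stationary phase itself AFR1, MFA1 and SSA4 were not called, the calls of SIT1, MRPL11, FRE3, MCM4 and FPS1 were lost without Δtup1 library B or either Δsds3 library, and that of TAH11 without either Δsds3 library. Among all genes with deletions apart in both phases, 2793 lay on the same side and 323 on opposite sides.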

How the results depend on the processing

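The number of genes called at stationary phase stayed between 3338 and 3794 under another pseudocount, filter, scaling or tool, was 3638 with all 10 stationary phase libraries in the fit, and 2823 were called at an adjusted p below 0.01. On the recovered reads, edgeR's quasi-likelihood test called 3590 and DESeq2 3474. A test against a 1.5-fold change called 1998 genes, 1000 higher and 998 lower, and a threshold of 2-fold left 1160 higher. Scaling by total reads gave 808 higher and 2986 lower, and 2579 genes kept their call and direction. Leaving out single libraries gave 2720 to 3760 calls. At diauxic shift it gave 43 to 2772 calls, chosen after seeing the data, and for the interaction it gave 160 without Δsds3 diauxic library B and 1682 without library A. Within 10 kb of chromosome ends 38.3% of genes were called. Scaling by total reads changed the log2 fold change of MCM4, called higher, to -0.047. For named genes that were not called, it changed the log2 fold change of AFR1 to -0.26, the log2 fold change of HSP78 to -0.28, the log2 fold change of SSA2 to -0.33, the log2 fold change of SSA4 to -0.14 and the log2 fold change of UME6 to -0.45, and leaving out single libraries moved the log2 fold change of GPH1 between -0.38 and 0.29 and the log2 fold change of UME6 between -0.019 and 0.41. The same scaling changed the sign of the median of 5 of 44 lists. A and B were set by the endings of the column names, which nothing ties to the replicate numbers of the labels or to a common culture or day. In every strain at stationary phase library B was the shallower. The A minus B differences of the deletions correlated at r = 0.40 across genes. With A and B as a replicate block 3814 genes were called, 1890 higher and 1924 lower, and the interaction called 0. Depth limits genes of few reads, since 5638 of the 6131 genes had 10 reads in every library, of which 3338 were called.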
